A study of Bos taurus with 20 samples.

Results

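The data described here came from 10 bulls of a larger set of 20, namely those whose sample title gives an animal number with no letter S before it. They comprised 5 bulls labelled high and 5 labelled low for intramuscular fat (IMF) content. Every bull was a Holstein x Charolais F2 cross, and total RNA of Musculus longissimus dorsi, the long back muscle sold as loin, was measured on 1 Affymetrix cattle array per bull. The other 10 bulls, 5 high and 5 low IMF, carry an S in the title, and the labels do not say what it stands for. For age, feeding and the measured fat content of each bull, nothing is given in the sources used here. The bulls are numbered 1 to 5 within each IMF group in the order of their records, and equal numbers do not pair animals.

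Intramuscular fat, seen as marbling, is stored mainly in fat cells that lie in the connective tissue between muscle fibres. A fat cell makes fatty acids from acetyl groups, or takes them up from blood, joins them to glycerol as triglyceride, and keeps the triglyceride in a droplet coated with proteins that govern its breakdown. A piece of muscle holds RNA of fibres, fat cells, vessels, nerves and immune cells at once, so fewer cells of a type and less RNA per cell cannot be told apart in these data.

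The signal of a probe set, the group of probes that reads 1 transcript, is given throughout as log2(intensity + 1), a scale on which fold changes of dim probe sets are understated. Median intensities of the 10 arrays ran from 62.6 to 67.56, and rank correlations between arrays from 0.9573 to 0.981. The 9 muscle marker genes measured had a mean log2 value between 13.70 and 13.79 on each array. Low IMF replicate 3 stood apart. Its brightest probe set for ALB, the plasma protein albumin that liver makes, read 83306.57 intensity units against 245.18 to 369.27 on the other 9 arrays. On this array 64 probe sets read over 8-fold above each of the other arrays at an intensity over 41.6, while the other arrays had at most 1 such probe set. The number of arrays limits the precision of all values below, and values that low IMF replicate 3 turned or moved strongly are given with and without it.

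Across all 24016 probe sets, 0 passed an adjusted p of 0.05 in limma (lowest adjusted p 0.9905), and 0 passed without low IMF replicate 3 (lowest 0.7195). By unadjusted limma p under 0.05, 507 probe sets were on the higher side in high IMF muscle (2.11% of those tested) and 410 on the lower side (1.71%). With each array centred on its median these counts were 650 and 333, and with quantile normalization 569 and 344. The lower side was the larger without high IMF replicate 1 (530 and 616), 2 (472 and 478), 4 (403 and 470) or 5 (363 and 441). Without high IMF replicate 3 the higher side stayed the larger, with 567 and 430. An unpaired test without limma's sharing of the spread across probe sets gave 669 and 374 at that threshold and 0 after adjustment. The values of the groups did not overlap for 100 probe sets on the higher side (0.416%) and 46 on the lower side (0.192%). With 1 probe set for each of 9155 named genes, the corresponding shares were 1.92% higher and 1.21% lower, and groups did not overlap for 42 genes on the higher side (0.459%) and 9 on the lower side (0.0983%). Without low IMF replicate 3 the shares with an unadjusted p under 0.05 were 2.02% and 1.22%, and those with groups that did not overlap 1.08% and 0.284%. Over all 10 bulls 53.0% of these genes had a higher mean in high IMF, with a median difference of 0.01. In the bulls with S, 3424 of them had a higher and 5731 a lower mean, with a median of -0.06. The genes and lists below are to be read against these shares, and no single gene passed the adjusted test.

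Most fat cell genes had a higher mean in high IMF, with overlap between the groups. Of 21 adipocyte marker genes measured, 15 had a higher and 6 a lower mean in high IMF, with a median difference of 0.21. An unadjusted p under 0.05 was reached by 5 on the higher side, against 1.92% of all genes, and by 1 on the lower side, against 1.21%. The list's mean value was 8.01, 7.41, 7.20, 7.31 and 7.53 in high IMF replicates 1 to 5 and 7.46, 6.98, 7.47, 6.93 and 6.70 in the low IMF bulls. Low IMF replicates 1 and 3 thus lay within the high IMF range. The list counts PCK1 and RBP4, which liver also expresses and which were highest on low IMF replicate 3 (9.01 for PCK1). Their part in its level was not tested. Without low IMF replicate 3 the median difference was 0.33, and in the bulls with S in the title it was 0.60.

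Genes of fat droplet proteins, some of them also counted as adipocyte markers, had higher means in high IMF. CIDEC, whose protein fuses small fat droplets into large ones, read 10.60, 9.14, 8.64, 9.46 and 9.67 in high IMF replicates 1 to 5 and 9.59, 8.06, 8.11, 7.26 and 5.89 in the low IMF bulls. Every high IMF bull lay above the low IMF median, and low IMF replicate 1 lay inside the high IMF range. The means were 9.50 ± 0.73 against 7.78 ± 1.35 (SD, n = 5 in each group). That is a difference of 1.72 with a standard error of 0.61, or 3.29-fold, at an unadjusted limma p of 0.0178. Its relative CIDEA read 6.62, 6.39, 5.98, 6.11 and 6.66 against 6.37, 5.88, 5.95, 5.27 and 5.58, a difference of 0.54 (SE 0.22, unadjusted limma p = 0.0303). The CIDEA groups overlapped through low IMF replicate 1. Over all 13 lipid droplet and lipolysis genes measured, 11 had a higher mean in high IMF and the median difference was 0.24. Of these, 3 had an unadjusted p under 0.05 on the higher side (1.92% of all genes), and the values of HSD17B13, a droplet enzyme, did not overlap (0.459% of all genes). The HSD17B13 probe set counted there was dim, at 3.25 against 2.47, and another probe set of the gene read 127.75 intensity units on low IMF replicate 3 against at most 2.16 elsewhere.

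FABP4, the fatty acid carrier of fat cells, read 11.03, 9.03, 8.93, 9.58 and 9.56 in the high IMF bulls and 10.08, 8.91, 8.40, 7.96 and 6.19 in the low IMF bulls. The range of the low IMF group was wide, its replicate 1 lay within the high IMF range and its replicate 2 just under it. The difference of 1.32 had a standard error of 0.66 and an unadjusted limma p of 0.0721, and it was 0.79 without low IMF replicate 5. TRARG1, which helps move the glucose carrier of fat cells to the surface, read 6.83, 6.29, 5.98, 6.04 and 6.57 against 6.28, 5.97, 5.80, 5.64 and 5.45. Its difference was 0.51 (SE 0.20, unadjusted limma p = 0.0304), with overlap between high IMF replicates 3 and 4 and low IMF replicate 1, and a dimmer probe set of the gene differed by -0.42. ADIPOQ, the fat cell hormone adiponectin, lay mostly under the level below which 40% of probe sets fell, and averaged 5.20 ± 0.75 against 4.49 ± 0.68 (SD, n = 5). ADRB3, a receptor through which catecholamines act on fat cells, ran the other way, with 7.14, 7.19, 7.22, 6.96 and 7.25 against 7.45, 7.20, 7.34, 7.51 and 7.85 and a difference of -0.32 (unadjusted limma p = 0.0357). Its groups overlapped between high IMF replicates 3 and 5 and low IMF replicate 2. LPL, which frees fatty acids from blood lipoproteins, was at 9.82 against 10.08, with overlapping groups.

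**Figure D1:**
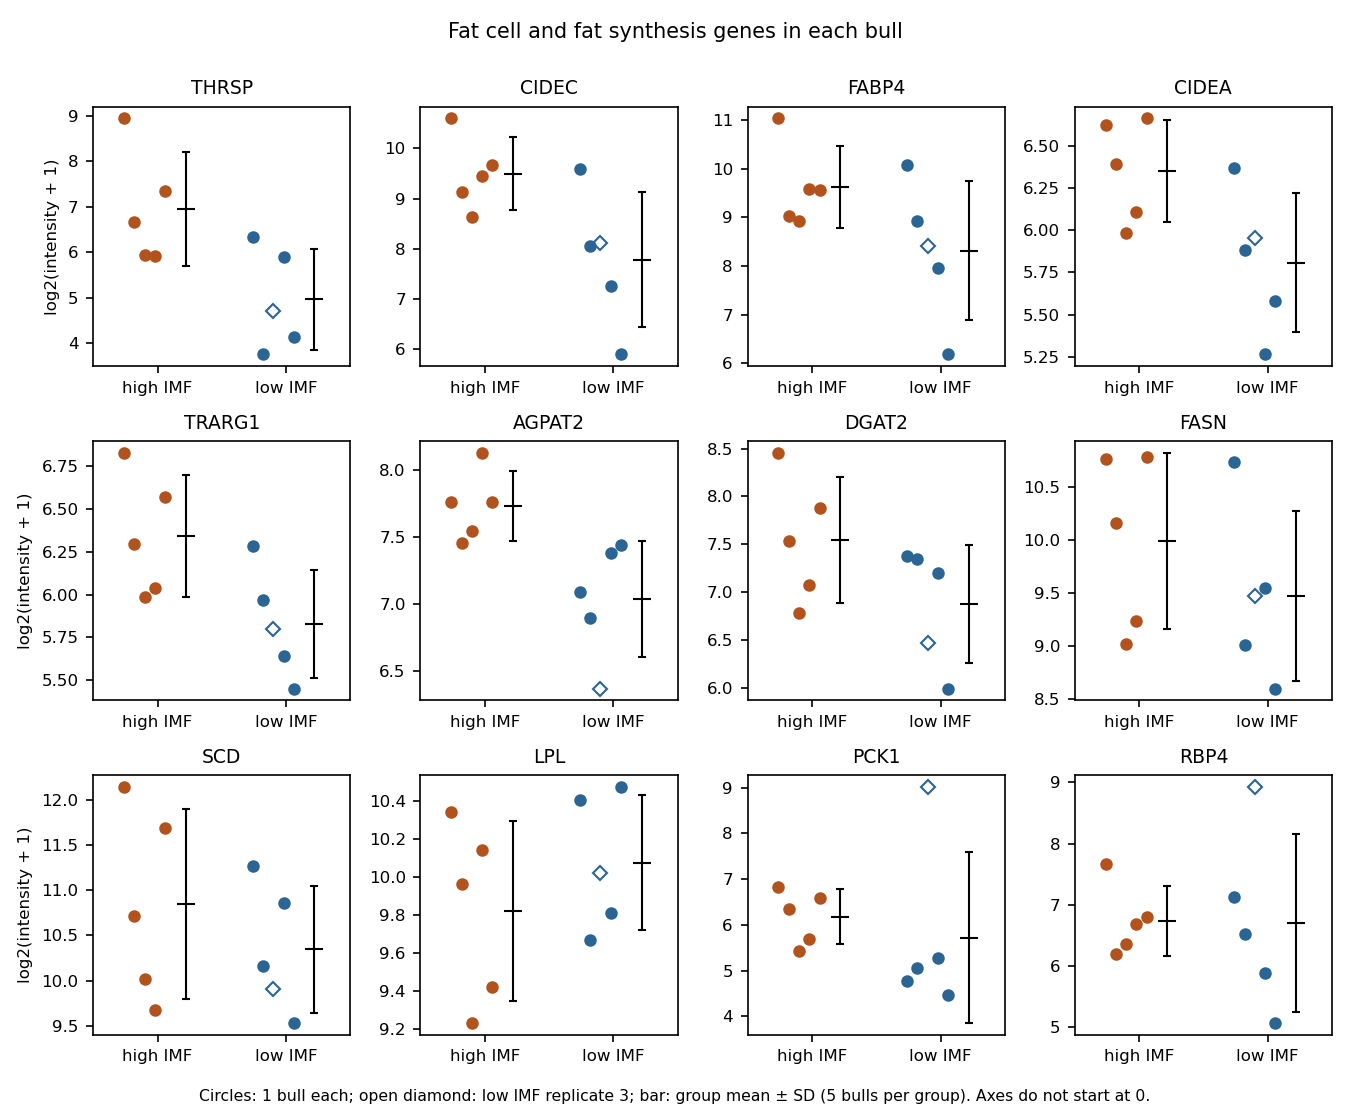
Values of 12 fat cell and fat synthesis genes in each bull, as log2(intensity + 1), with high IMF bulls in brown and low IMF bulls in blue. Bars give the group mean ± SD of 5 bulls and the open diamond is low IMF replicate 3, which is the lowest value of AGPAT2 and the highest of PCK1 and RBP4.

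Genes of fatty acid synthesis differed in size among themselves. THRSP, a regulator of lipid synthesis that is also among the adipocyte markers, read 8.94, 6.66, 5.94, 5.93 and 7.34 in high IMF replicates 1 to 5 and 6.33, 3.76, 4.71, 5.90 and 4.15 in the low IMF bulls. High IMF replicate 1 was far up and low IMF replicate 1 lay among the high IMF values. The difference was 1.995 with a standard error of 0.67, or 3.99-fold (unadjusted limma p = 0.0130), and 1.93 without low IMF replicate 3. FASN, which builds palmitate, read 10.77, 10.16, 9.02, 9.24 and 10.78 against 10.73, 9.01, 9.47, 9.55 and 8.60, with a difference of 0.52 inside the spread between bulls (SE 0.46), and from 0.30 to 0.83 with 1 bull left out (lowest without low IMF replicate 5, highest without low IMF replicate 1). SCD, which desaturates fatty acids, read 12.14, 10.71, 10.02, 9.68 and 11.69 against 11.26, 10.16, 9.91, 10.86 and 9.53, with a difference of 0.50 (SE 0.51), or 0.18 without high IMF replicate 1 and 0.80 without high IMF replicate 4. High IMF replicates 1 and 5 and low IMF replicate 1 were the highest bulls for both enzymes, so the groups overlapped widely. The same comparison gave 0.26 for ACLY, which supplies cytosolic acetyl groups (SE 0.21, and 0.16 without low IMF replicate 5), and 0.47 for ACSS2, which activates acetate (SE 0.21, unadjusted limma p = 0.0509). Of the 18 genes of the list, 14 had a higher mean in high IMF, and the median difference was 0.15. Only THRSP had an unadjusted p under 0.05, against 1.92% of all genes on the higher side. In the bulls with S the median was 0.49.

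AGPAT2 was the gene of triglyceride assembly whose groups did not overlap (0.459% of all genes on the higher side). Its enzyme adds the second fatty acid chain to the glycerol backbone. It read 7.76, 7.45, 7.54, 8.13 and 7.76 in high IMF replicates 1 to 5 and 7.09, 6.90, 6.37, 7.38 and 7.44 in the low IMF bulls, so the lowest high IMF bull was just above the highest low IMF bull. The difference was 0.69 with a standard error of 0.21, or 1.62-fold (unadjusted limma p = 0.00859). It was 0.53 without low IMF replicate 3, the lowest bull, and 0.16 in the bulls with S. DGAT2, which adds the last chain, read 8.46, 7.53, 6.78, 7.07 and 7.88 against 7.38, 7.35, 6.47, 7.19 and 5.99, with a difference of 0.67 (SE 0.37), or 0.44 without high IMF replicate 1, and overlapping groups. Over the 14 genes measured, 8 had a higher and 6 a lower mean, with a median of 0.07. In the bulls with S these counts were 6 and 8, with a median of -0.10, where that over all genes was -0.06.

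Sterol synthesis genes and adipogenic regulators also had mostly higher means. The 19 sterol synthesis genes had 13 higher means and a median of 0.08. SREBF2, which switches these genes on, read 7.08, 6.99, 6.97, 7.01 and 7.38 against 6.65, 6.68, 7.14, 6.72 and 6.57, a difference of 0.34 (unadjusted limma p = 0.0325). Low IMF replicate 3 was the only low IMF bull inside the high IMF range. Without it the difference was 0.43 and the groups did not overlap, as for 1.08% of all genes on the higher side. Among 14 adipogenic regulators 12 had higher means, with a median of 0.12. They included TCF7L2, a Wnt pathway factor, at 7.31 ± 0.16 against 7.04 ± 0.12, and CEBPA, a factor of fat cell maturation, whose dim probe set averaged 3.83 ± 0.30 against 3.03 ± 0.59 (SD, n = 5). Their unadjusted limma p-values were 0.0389 and 0.0146. KLF5, another gene of this list, ran the other way, with a difference of -0.51 (SE 0.25, unadjusted limma p = 0.0641) and overlapping groups. Every high IMF bull lay below the low IMF median of KLF5, and its other probe set differed by -0.30. The KLF5 difference was -0.31 without low IMF replicate 2 and -0.43 in the bulls with S. In the bulls with S, 5 adipogenic regulators had higher and 9 lower means, with a median of -0.04, where that over all genes was -0.06. Fatty acid uptake genes had 6 higher and 9 lower means among 15, with a median of -0.07 that was 0.06 in the bulls with S.

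Transcripts that liver makes in quantity separated low IMF replicate 3 from every other bull. APOA2, an apolipoprotein, read 5410.15 intensity units on that array and at most 28.43 elsewhere. SERPINA1, a plasma protease inhibitor, read 6378.47 against at most 55.13, and TTR, which carries thyroid hormone in plasma, 1039.67 against at most 13.85. The mean log2 value over 26 liver transcripts was 8.639 on it and 4.273 to 4.996 on the others. Of the 26 genes, 22 had a lower mean in high IMF, with a median difference of -0.997. Without this array 11 had higher and 15 lower means, and the median was -0.056. In the bulls with S, where arrays with a high ALB signal were in the high IMF group, the median was 1.35. The jump was not seen by every ALB probe set, and the ALB probe set with the highest mean log2 value read 9.12, 9.19, 9.16, 9.67 and 9.41 against 9.04, 8.84, 8.90, 9.31 and 9.11. On low IMF replicate 3 the macrophage marker level was also the highest, at 6.03, with low IMF replicate 1 at 5.93 and the other bulls between 4.36 and 5.42.

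**Figure D2:**
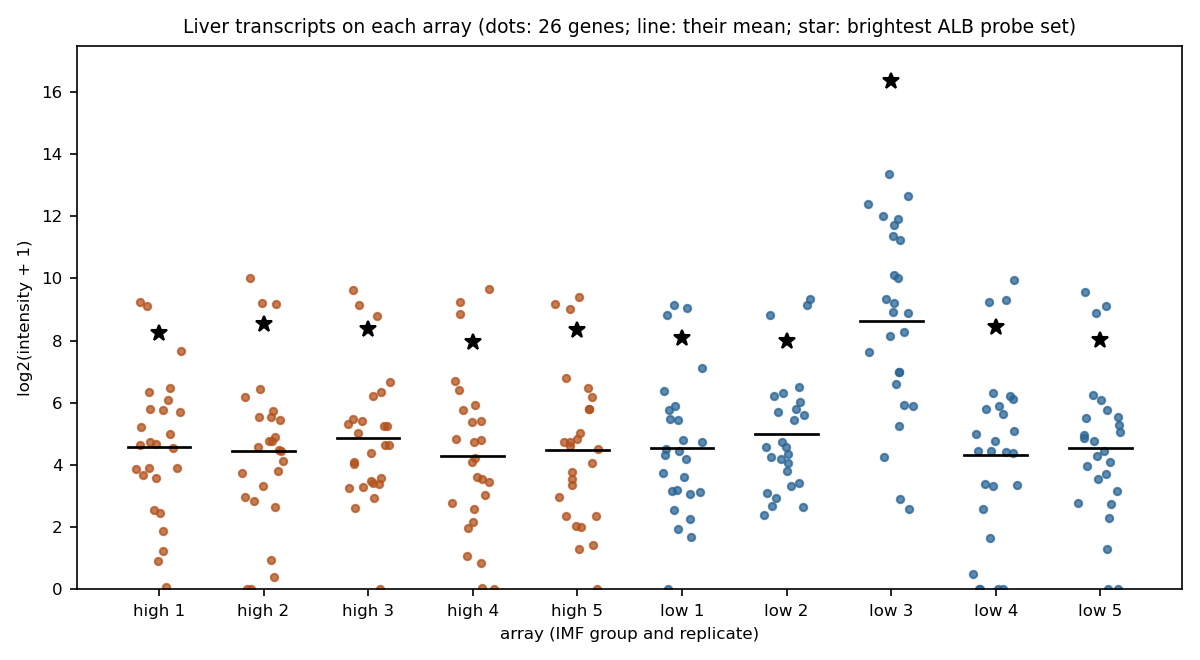
Each dot is 1 of 26 liver transcripts as log2(intensity + 1) on 1 array, and the line is their mean. The star is the ALB probe set with the highest mean intensity, which low IMF replicate 3 sets. Another ALB probe set, which is the ALB dot, reads higher on the other arrays and has no such jump. Low IMF replicate 3 has a mean of 8.639 and the other 9 arrays lie between 4.273 and 4.996.

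Values of PCK1 and RBP4, which both liver and fat cells express, depended on that array. PCK1, which makes the glycerol part of triglyceride in fat cells and glucose in liver, read 6.83, 6.35, 5.43, 5.70 and 6.59 in the high IMF bulls and 4.78, 5.07, 9.01, 5.29 and 4.47 in the low IMF bulls. Low IMF replicate 3 had the highest value and the other 4 low IMF bulls all lay under the lowest high IMF bull. With that array left out, groups did not overlap for 1.08% of all genes on the higher side. The difference was 0.46 (SE 0.78) with the array and 1.28 (SE 0.31, unadjusted limma p = 0.00228) without it. RBP4, the retinol carrier, read 7.67, 6.19, 6.35, 6.69 and 6.81 against 7.13, 6.52, 8.92, 5.88 and 5.07. Its difference was 0.04 with the array and 0.59 without it, with overlap in each case. PCK1 and RBP4 were singled out after their values were seen, and what part the liver transcripts have in them was not tested. 

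A pair of myosin light chain genes had lower means in high IMF. MYL6B, a myosin light chain of slow fibres, read 8.62, 7.87, 8.03, 7.59 and 8.48 in high IMF replicates 1 to 5 and 9.33, 10.47, 8.40, 10.22 and 9.38 in the low IMF bulls. Low IMF replicate 3 was the only low IMF bull within the high IMF range. The difference was -1.44 with a standard error of 0.37, or 0.368-fold (unadjusted limma p = 0.00300). Without that bull it was -1.73, with groups that did not overlap, against 0.284% of all genes on the lower side. In the bulls with S it was 0.04, and the difference between the title series had an adjusted limma p of 0.923. MYL4, the light chain of embryonic and atrial muscle, read 7.20, 5.73, 5.91, 5.91 and 6.78 against 7.59, 7.20, 6.47, 8.27 and 7.54. High IMF replicates 1 and 5 reached into the low IMF range, and the difference was -1.11 (SE 0.37, unadjusted limma p = 0.0135), or -1.34 without low IMF replicate 3 and 0.30 in the bulls with S.

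The slow fibre list as a whole had 11 lower and 2 higher means among 13 genes, with a median of -0.05. MYL6B was the list's only gene with an unadjusted p under 0.05, against 1.21% of all genes on the lower side. Its mean value ran from 12.05 to 12.40 in high IMF and from 12.42 to 12.48 in low IMF, so the groups were apart. With MYL6B left out they overlapped, at 12.40 to 12.77 against 12.60 to 12.76. MYOZ2, a protein of the Z disc, read 12.02, 11.51, 12.72, 11.91 and 10.34 against 12.51, 12.34, 12.65, 12.10 and 12.18, with a difference of -0.66 (SE 0.37) and the lowest value in high IMF replicate 5, without which the difference was -0.32. MYH7, the slow myosin heavy chain, differed by -0.02, by -0.0090 without low IMF replicate 3 and by 0.0001903 with arrays centred on their medians, and a dim probe set of the gene differed by 0.06. Fast fibre genes had 5 higher and 6 lower means among 11, with a median of -0.0045 that was 0.0022 without low IMF replicate 3, and centring gave 8 higher means and a median of 0.0177. FST, which blocks myostatin and activin, read 7.56, 7.54, 7.74, 7.86 and 7.55 against 7.61, 6.72, 7.20, 6.996 and 6.77. Low IMF replicate 1 alone lay within the high IMF range, and the difference was 0.59 (SE 0.17, unadjusted limma p = 0.00661), against -0.25 in the bulls with S.

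**Figure D3:**
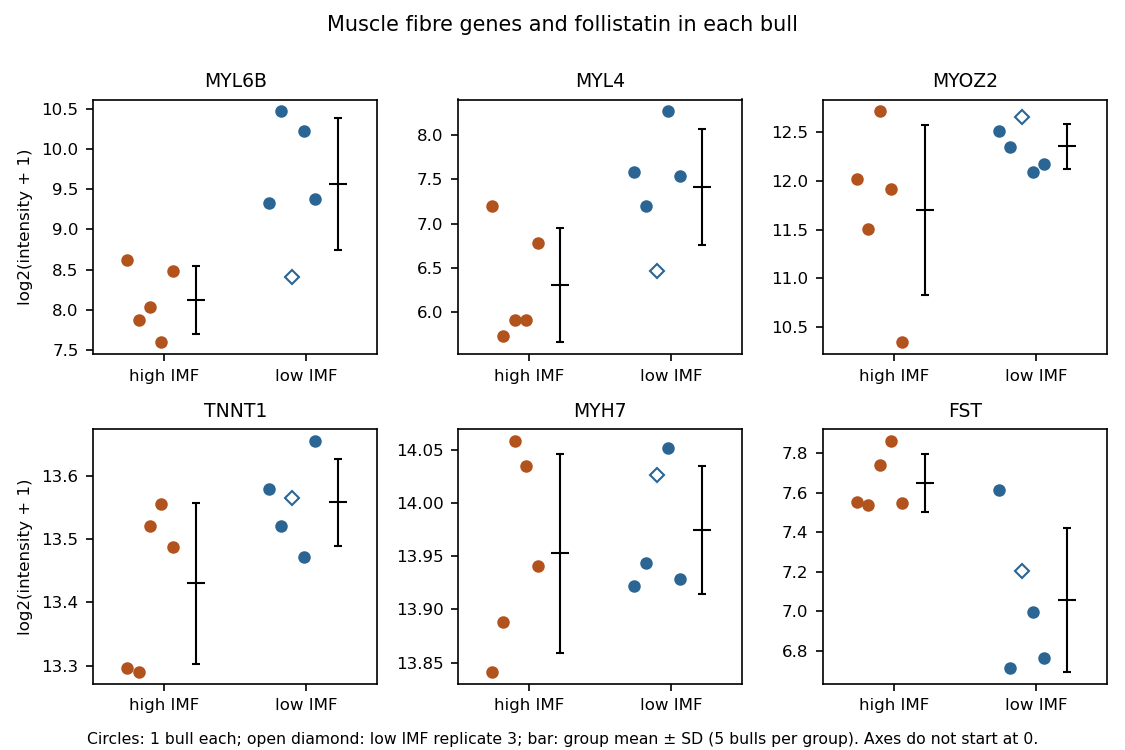
Values of 5 muscle fibre genes and FST in each bull as log2(intensity + 1), with the group mean ± SD of 5 bulls and low IMF replicate 3 as an open diamond. MYL6B averages 8.12 in high IMF and 9.56 in low IMF, whereas MYH7 averages 13.95 and 13.97.

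Differences of energy metabolism genes were small. Of 25 genes of mitochondrial fatty acid oxidation, 18 had higher means in high IMF, with a median of 0.04. SLC25A20, which carries acylcarnitines into mitochondria, read 11.23, 11.07, 11.06, 11.40 and 11.19 against 10.83, 10.98, 10.99, 11.05 and 10.88. Its groups did not overlap (0.459% of all genes on the higher side). The difference of SLC25A20 was 0.24 (unadjusted limma p = 0.0359), or 0.01 in the bulls with S. ETFB, a subunit that hands on electrons from fatty acid oxidation, read 9.33, 9.66, 9.67, 9.76 and 9.62 against 9.31, 9.28, 9.22, 9.36 and 9.38. High IMF replicate 1 alone fell within the low IMF range. The difference of ETFB was 0.30 (unadjusted limma p = 0.0168), or -0.06 in the bulls with S. Oxidative phosphorylation had 32 higher and 39 lower means among 71 genes. Without low IMF replicate 3 these counts were 48 and 23, with medians of -0.0070 before and 0.0228 after, and with centred arrays 45 of the 71 had higher means (median 0.0152). PPARGC1A, a coactivator of mitochondrial genes, differed by 0.01 (SE 0.30), and 2 of its other probe sets by -0.06 and -0.15. The 16 TCA cycle genes had 10 higher means (median 0.05), and the 19 genes of glycolysis and glycogen had 7 (median -0.0075), or 13 with centred arrays (median 0.0147).

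Differences of protein turnover genes were small. Of 28 proteasome subunits, 24 had higher means in high IMF, with a median of 0.09, and 2 had groups that did not overlap (0.459% of all genes). They were PSMC5, a subunit of the regulatory cap, at 11.05, 11.05, 11.08, 11.08 and 11.09 against 10.87, 11.02, 10.87, 10.95 and 10.89, and PSMB6, a subunit of the catalytic core, at 11.90, 11.87, 11.92, 11.89 and 12.02 against 11.77, 11.68, 11.85, 11.80 and 11.81. In the bulls with S, 15 of the 28 subunits had higher means, where 3424 of all 9155 genes did. Ribosomal protein genes had 7 higher and 56 lower means among 63, with a median of -0.05, and centring the arrays gave 17 higher means. Among 30 genes of extracellular matrix and fibroblasts 16 had higher means, with a median of 0.01 that was -0.0099 with quantile normalization.

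**Figure D4:**
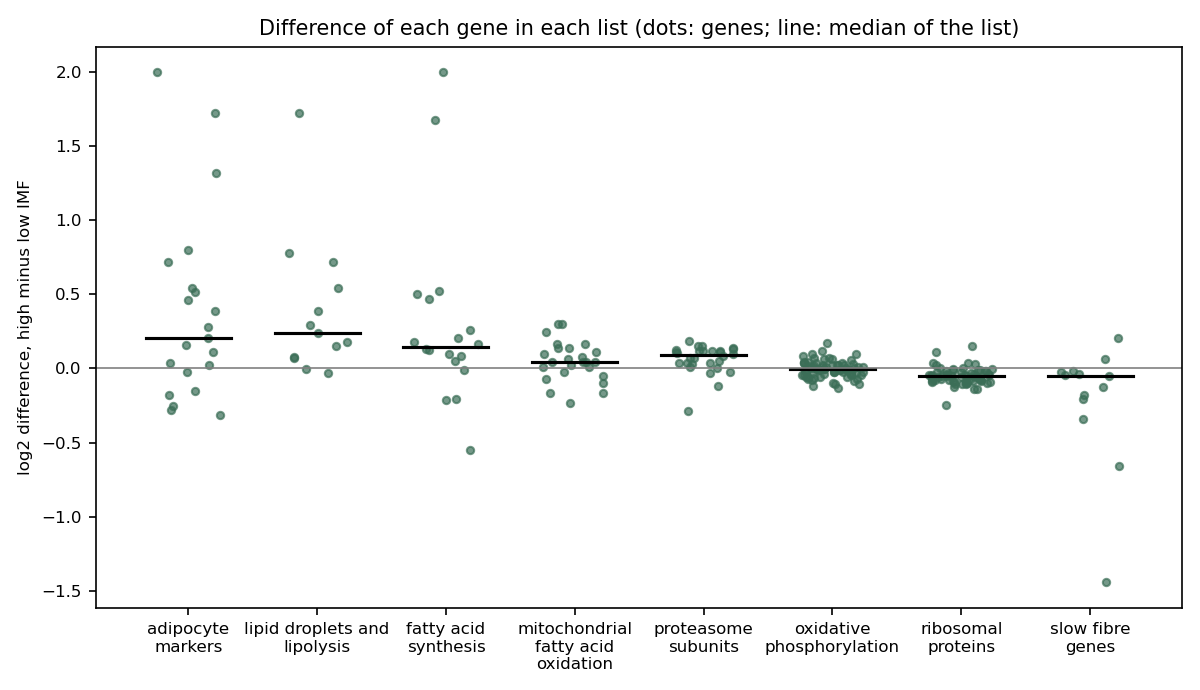
Each dot is the log2 difference, high minus low IMF, of 1 gene of the list named below it, and the line is the list's median. Adipocyte markers reach up to 1.995 for THRSP and slow fibre genes down to -1.44 for MYL6B, while ribosomal and proteasome genes lie close to 0 with medians of -0.05 and 0.09.

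Markers of other cells in muscle showed no common shift. Endothelial markers had 9 higher and 4 lower means among 13, with a median of 0.03 that was 0.08 without low IMF replicate 3. In the bulls with S they had 1 higher and 12 lower, beside 3424 higher and 5731 lower over all genes there. Macrophage markers had 3 higher and 8 lower means among 11, with a median of -0.22 that was -0.06 without low IMF replicate 3. Lymphocyte markers had 3 higher and 9 lower means among 12 (median -0.22, and -0.15 without that array). Pericyte and smooth muscle markers had 9 higher and 2 lower among 11 (median 0.11, and 0.05 without it). Nerve and Schwann cell markers had 5 higher means among 6 (median 0.14, and 0.10 without it). Satellite cell markers had 2 among 3 (median 0.06, and 0.10 without it) and red blood cell markers 3 among 6 (median 0.07, and 0.10 without it). Skeletal muscle markers had 4 higher means among 9 (median -0.01), but 8 with centred arrays (median 0.01) and 5 with quantile normalization (median 0.0097).

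**Figure D5:**
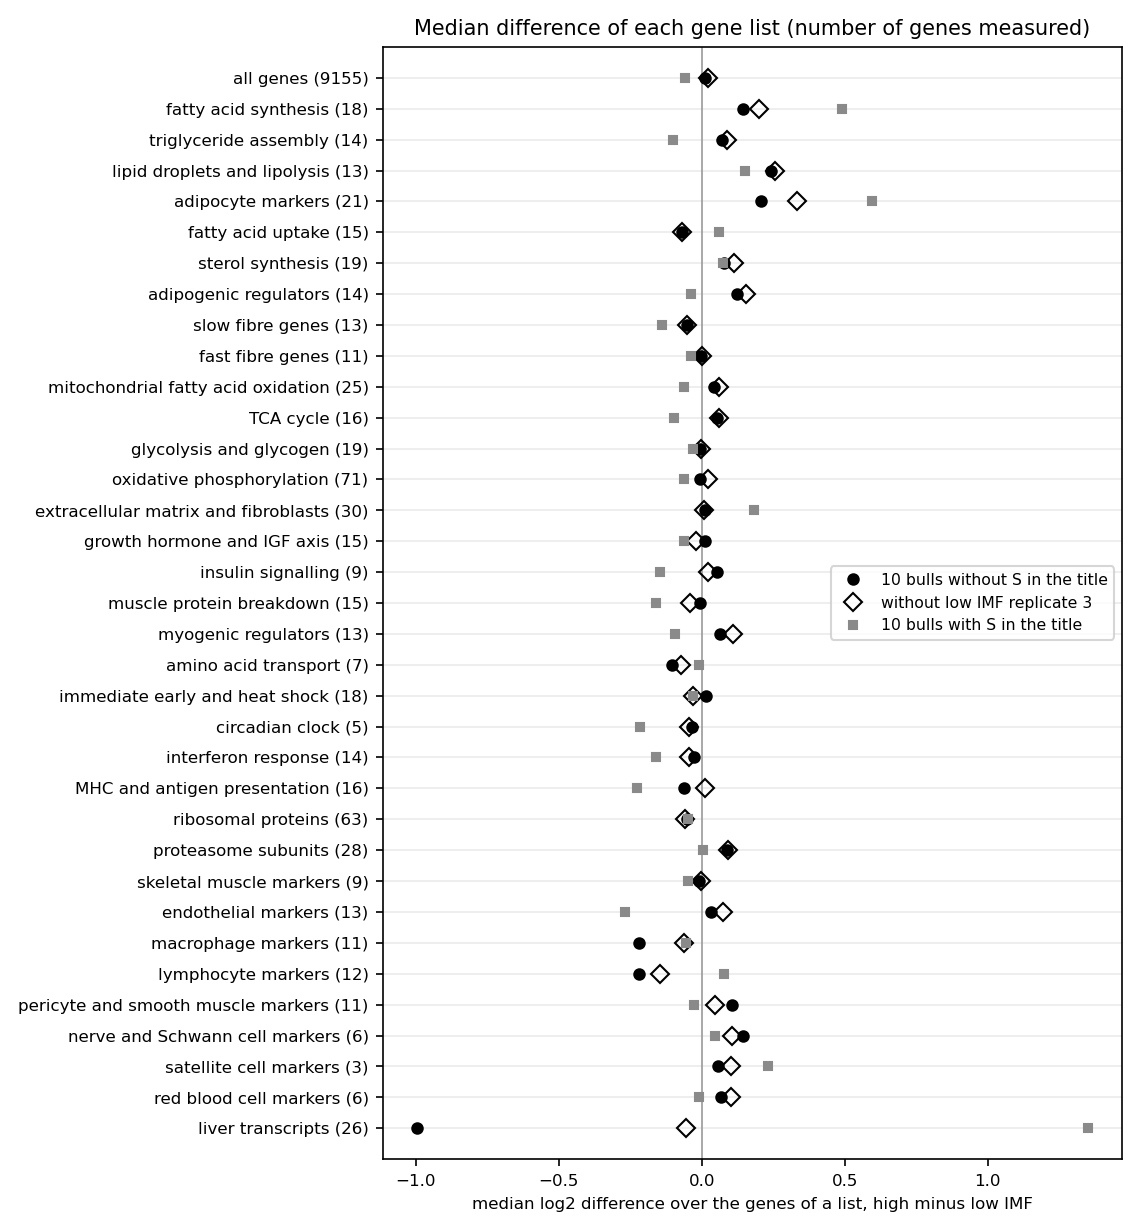
Median log2 difference, high minus low IMF, over the genes of each list in the 10 bulls without S (circles), without low IMF replicate 3 (diamonds) and in the 10 bulls with S (squares). Liver transcripts move from -0.997 to -0.056 when low IMF replicate 3 is left out, and adipocyte markers from 0.21 to 0.33.

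For the hormone and nutrient signalling genes named, the groups overlapped. SOCS2, a brake on growth hormone signalling, read 5.87, 5.95, 6.92, 7.003 and 6.83 against 6.85, 6.91, 6.59, 8.07 and 7.10, with a difference of -0.59 (SE 0.32) and overlapping groups, or -0.35 without low IMF replicate 4. SLC43A2, a carrier of large neutral amino acids, read 8.30, 8.08, 8.29, 8.57 and 9.33 against 8.68, 10.03, 8.65, 8.97 and 9.29, a difference of -0.61 (SE 0.31), or -0.38 without low IMF replicate 2. Each had the lower mean in high IMF, and in the bulls with S the differences were -1.31 and -0.77. The growth hormone and IGF axis had 8 higher means among 15 genes (median 0.01), and its median turned to -0.02 without low IMF replicate 3 and to -0.0071 with quantile normalization. Insulin signalling had 6 among 9 (median 0.05, and 0.02 without that array) and amino acid transport 2 among 7 (median -0.10, and -0.07 without it). Myogenic regulators had 7 higher means among 13 (median 0.06, and 0.11 without it). Muscle protein breakdown had 7 among 15 (median -0.0060, -0.04 without it, and 0.02 with centred arrays). Immediate early and heat shock genes had 10 higher and 8 lower means among 18 (median 0.02), which turned to 6 and 12 (median -0.03) without low IMF replicate 3. Antigen presentation had 6 higher and 10 lower among 16 (median -0.06), which turned to 9 and 7 (median 0.01) without it. The interferon response had 6 among 14 (median -0.03, and -0.05 without it), and clock genes 2 among 5 (median -0.03, and -0.05 without it).

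Outside the lists, among genes brighter than the dimmest 40% of probe sets, the smallest unadjusted p on the higher side belonged to AP5B1, a subunit of an endosomal adaptor. It read 5.997, 5.90, 5.98, 6.18 and 6.10 in high IMF against 5.69, 5.67, 5.46, 5.30 and 5.33 in low IMF bulls, and its groups were apart with a difference of 0.54 (SE 0.11, unadjusted limma p = 0.000748). S100PBP, INKA1, TPP1, TRIM8, LSM10 and NAA60 also had groups apart, as had 0.459% of all genes on the higher side. They were named for their small p, which groups apart tend to give. Their differences ran from 0.32 for TPP1, a lysosomal peptidase, to 0.55 for INKA1, a kinase inhibitor, although a dimmer probe set of NAA60 differed by -0.18. On the lower side SLC51B, a subunit of a steroid and bile acid transporter, read 6.44, 6.58, 6.60, 6.53 and 6.86 against 7.06, 7.16, 7.01, 6.87 and 7.10, apart by -0.44 (SE 0.11, unadjusted limma p = 0.00218). SLC19A1, a folate carrier, was apart as well, with a difference of -0.38, and so were BVD1.15 (-0.49) and RPS6KA3 (-0.32). Groups were apart for 0.0983% of all genes on the lower side. A dim probe set of BVD1.15 differed by 0.31. In the bulls with S, BVD1.15 differed by 0.34 and RPS6KA3 by -0.34. Without low IMF replicate 3 the differences of AP5B1 and SLC51B were 0.53 and -0.45, and in the bulls with S they were 0.0029 and -0.13.

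The IMF difference was also compared between the title series in a fit over all 20 arrays. By limma 0 of 24016 probe sets passed an adjusted p of 0.05 (lowest 0.9235), and 1109 had an unadjusted p under 0.05 (4.62%). CIDEC, FABP4 and THRSP differed by 2.16, 1.99 and 2.91 in the bulls with S, in the direction seen in the bulls without S. FST and MYL4 had the other sign there, at -0.25 and 0.30, with an unadjusted limma p of the difference between the title series of 0.00759 and 0.0224 and an adjusted p of 0.923 for each.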

How the data were processed

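Total RNA of Musculus longissimus dorsi was measured on 1 array per bull. Per the labels' protocols, biotin-labelled cRNA was made from 0.5 ug of RNA cleaned on columns. Per the submitters' processing notes, GCOS 1.1.1 and Affymetrix Expression Console 1.1 were used. For the summarising and normalizing of probe signals, the method was not given in the sources used here. Linear intensity values per probe set are what the authors deposited, and depth does not apply to them. Groups came from the IMF labels. After 112 control probe sets were removed, 24016 were tested as log2(value + 1) of the deposited intensities by two-sided limma 3.58.1 fits (lmFit, eBayes; Benjamini-Hochberg) in R 4.3.3, on code tested on simulated data. The series text names a paired t-test, but the labels pair no bulls, so the fit was unpaired.

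The platform annotation, which can be old, named 13292 probe sets with 1 symbol and 86 with more, left 10638 unnamed, and 13263 gene identifiers matched RefSeq. A gene was read from its probe set with the highest mean log2 value. Among genes above the dimmest 40% of probe sets, those named were the 8 with the smallest p per direction, 2 per list, up to 4 per direction whose groups do not overlap, and a few set by name. ADIPOQ and LEP were set by name, but each was among the dimmest 40% of probe sets. PCK1, RBP4, ADRB3, LPL, CFD, CEBPA, HSD17B13, PSMB6, APOA2, SERPINA1 and TTR were taken up after their values were seen. The members and the 34 gene lists were chosen with earlier results of these data known. The alternatives were quantile normalization, median centring, log2(value + 16), no dimmest 40%, an eBayes trend, the spread of all 20 arrays, leaving out each array, and an unpaired t-test. P-values measure the spread between these bulls only. Sequences and coordinates were not used here.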

Additional observations from a re-analysis of the deposited data

Results flagged for a closer look

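In 252 groups of 5 bulls, taken by IMF group for each named gene, list level and array measure, 22 held a bull whose gap to the others was over 0.71 of the group's range, and chance gives about 5% of such groups. Of these 22, 3 were low IMF replicate 3, which read 13.38 for AHSG, a plasma protein of liver, 8.64 for the level of liver transcripts and 7.14 for SREBF2. Low IMF replicate 2 was far off in several, at 5.40 for TPP1, 11.91 for VLDLR, 9.88 for IDH3G and 7.55 for RPS6KA3. Its level of TCA cycle genes was 11.42 and that of oxidative phosphorylation 11.85, each the lowest of the low IMF group. The other low IMF bulls concerned were replicate 1 for RASSF2 (6.07), replicate 4 for FDPS (8.98) and replicate 5 for BVD1.15 (7.17) and the red blood cell level (5.10).

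Among the high IMF bulls, replicate 4 read 5.95 for TPP1, 7.83 for IFI6 and 9.12 for the level of fatty acid uptake genes. High IMF replicate 3 read 9.65 for GABARAPL1, 6.05 for RPS19 and 6.44 for MBP. High IMF replicate 5 read 7.38 for SREBF2 and 6.39 for RPS6KA3, and high IMF replicate 1 read 6.72 for SLC3A2. The cause was not tested for any of these values.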

How the results depend on the processing

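No paired analysis was possible because the labels pair no bulls and the replicate numbers only name them. Of 89 named genes, 85 kept their direction under every alternative run, and of 34 list medians, 2 moved by more than the spread between bulls. A change of sign alone was not counted for medians. The liver median, -0.997 and -0.056 without low IMF replicate 3, was not among the 2. With that array the SD of the liver level was 1.825 in low IMF, against 0.214 in high IMF. The lymphocyte median was -0.03106 without the dimmest 40% of probe sets, and the skeletal muscle marker median ran from -0.02115 to 0.02329 when 1 array was left out. The slow fibre median without MYL6B, an alternative chosen after seeing the data, was -0.04912. Leaving out 1 array gave 0 to 2 probe sets past the adjusted threshold, against 0 with all arrays. Without high IMF replicate 1 they were CDO1 and an unnamed probe set, and without high IMF replicate 2 another unnamed one, named here after their values were seen, and all 3 were dim, with at most 10.82 intensity units on any array. Probe sets with an unadjusted limma p under 0.05 on the lower side were 143 without the dimmest 40%, where fewer were tested, and 349 to 616 with 1 array left out (616 without high IMF replicate 1). On the higher side they were 361 without the dimmest 40%, and 363 to 653 with 1 array left out, and the lower side was the larger without high IMF replicate 1, 2, 4 or 5. Groups that did not overlap numbered 211 higher and 132 lower without low IMF replicate 3, 149 to 298 and 98 to 150 over all such omissions, which leave fewer bulls to overlap, and 11 lower without the dimmest 40%. The difference between title series had 0 probe sets past the threshold in each alternative run.

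Signs turned for MBP (0.01634 without low IMF replicate 3, and -0.4278 to 0.07734 with 1 array left out, the highest without high IMF replicate 3), GNAS (0.006117 with quantile normalization, 0.002296 centred, -0.05011 to 0.01771 with 1 array left out), MYH7 (0.0001903 centred, -0.04856 to 0.00606) and PPARGC1A (-0.2431 to 0.1798 with 1 array left out). The cause was not tested. Another probe set of GNAS averaged 7.27 against 7.63, a difference of -0.36 (unadjusted limma p = 0.0179) with overlapping groups. A brighter one differed by 0.09, and dim ones by -0.27 and -0.34. Precision is limited by 5 bulls per group, and dim probe sets had no detection call to set them apart from background.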

Other observations

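Low IMF replicates 1 and 3 had the highest macrophage marker levels, 5.93 and 6.03, and low IMF replicate 5 the lowest, 4.36. Low IMF replicate 5 also had the lowest mean over extracellular matrix and fibroblast genes, 7.59, and over adipocyte markers, 6.70. Low IMF replicate 1 had the highest matrix level, 9.01, with the other 8 bulls between 7.97 and 8.65. High IMF replicates 1 and 5 and low IMF replicate 1 had the highest levels of fatty acid synthesis genes, 8.50, 8.36 and 8.15. BioB, a control transcript added before hybridisation, read 348.08 to 429.9 on these arrays and 185.67 to 312 on those of the bulls with S.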
